A study of Homo sapiens with 21 samples.

Results

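Calcium was added to MDA-MB-453 cells that already held DES, and the question was which transcripts moved when calcium came on top of the drug. These cells are an established line from a human breast tumour. DES (diethylstilbestrol) is a synthetic estrogen that also acts as an antagonist of ESRRB, the estrogen-related receptor beta. In the group DES, 3 libraries came from cells treated with 10 μM DES for 24 h. In the group DES+calcium, 3 libraries came from cells given 10 μM DES for 3 h and then 10 mM calcium for 24 h. The whole series holds 21 libraries in 7 groups. A group with 10 mM calcium for 24 h and an untreated control, 3 libraries each, served here to compare the effect of calcium without DES. The other treatments were cadmium, cadmium after DES, and the ESRRB agonist GSK4716. The labels give no source for the replicates beyond their numbers, so the spread between libraries may be technical. If the 3 h were added to the 24 h, total time with DES differed between the groups, and this cannot be told apart from calcium. The labels place the calcium treatments in medium without serum and do not say which medium the control and the DES libraries had, so a difference of medium cannot be told apart from calcium in any of these comparisons.

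The genes described are the protein-coding genes of at least 200 bases whose FPKM averaged 0.5 or more in the 6 libraries of DES and DES+calcium. FPKM is the number of sequenced fragments of a gene, scaled by its length and by library size. Of 19943 protein-coding genes of this length in the deposited table, 10783 passed and 9160 did not. The gene just inside the limit was FUT10 at a mean of 0.5004 FPKM, and MYBL1 lay just outside at 0.4991 FPKM. With genes of other kinds, 14619 genes of 58735 were tested.

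Raised calcium outside a cell can act through the calcium-sensing receptor and through calcium entry. Calcium inside the cell activates calmodulin-dependent kinases, calcineurin and the ERK MAP kinase pathway. The kinases among them lead to phosphorylation of the transcription factor CREB and of ELK1, a partner of SRF, which sit on the promoters of immediate early genes. The first wave of such genes includes FOS, FOSB and EGR1, themselves transcription factors, and it is followed by phosphatases and Sprouty proteins that damp the ERK pathway. ESRRB and its relatives ESRRA and ESRRG bind a half-site extended at its 5′ end and are known as regulators of pluripotency genes and of mitochondrial metabolism.

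The 6 libraries held 15704403 to 25090928 fragments on genes. DES replicate 3 stood apart, with fragments on 35112 genes, against 17478 to 22143 genes in the other 5. Mitochondrial transcripts took 3.47% to 4.96% of the fragments with DES and 4.34% to 5.17% with DES+calcium. All 13 luminal breast markers were at 1 FPKM or more in every library of both groups, and their summed level was 1949 to 3626 FPKM with DES and 2981 to 4077 with DES+calcium. Of 7 fibroblast markers, COL1A1 alone was at 1 FPKM or more in every library, and the summed level was 12.6 to 33.0 FPKM with DES and 9.35 to 16.7 with DES+calcium. The summed levels of 6 basal, 8 immune and 4 endothelial markers were at most 1.92, 1.30 and 0.552 FPKM in any of the 6 libraries, with KRT14, CD3E, MS4A1, ITGAM, CDH5 and PECAM1 at 0 fragments in all 3 libraries of DES+calcium. The part of these markers in the results was not tested.

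The largest positive differences between DES+calcium and DES were in the immediate early genes FOS, FOSB and EGR1, and no coding gene passed the test. With limma on log2(FPKM + 0.1), 0 of 10783 coding genes had an adjusted p under 0.05 in either direction. Over all 14619 genes tested, 0% were called higher and 0.0479% lower. Those 7 genes are short RNAs of 63 to 110 bases, which had 0 fragments in every DES+calcium library and 4 to 19 fragments in the DES libraries. They reached the limit of 0.5 FPKM only through the DES libraries, so their direction was fixed by the filter and is no support for a decrease. The lowest adjusted p of a coding gene was 0.0984, shared by 8 genes. At an unadjusted p under 0.05, 543 coding genes were higher and 736 lower with DES+calcium, or 5.04% and 6.83%, where 4.6% and 9.01% of all genes tested were higher and lower. The median log2 fold change of the coding genes was 0.05, and the quartiles were -0.23 and 0.30. A log2 fold change of 1 or more was found for 101 coding genes and of -1 or less for 265.

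A second count asked whether the libraries overlapped at all. In 977 coding genes all 3 DES+calcium libraries lay above all 3 DES libraries, and in 1227 they lay below. This is 9.06% and 11.4% of the coding genes, against 7.77% and 12.5% of all genes tested. Without DES replicate 3, 0 coding genes passed the test, 316 were higher and 419 lower at an unadjusted p under 0.05, and 1295 and 1476 had libraries that did not overlap. With a library fewer, groups separate more readily, so 1295 and 1476 cannot be set against 977 and 1227. Without DES+calcium replicate 2 the unadjusted counts were 213 and 470, and without DES replicate 1 they were 1222 and 999. Other fits of the same libraries did call coding genes: 16 higher and 113 lower with all 7 groups in a single fit, 244 and 404 with limma's arrayWeights, and 10 and 124 with limma-voom and a replicate block. All 3 of these called FOS, FOSB, PLK3, SAT1 and KLF3 higher, and 70 genes lower.

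FOS, the partner of JUN in the AP-1 transcription factor, had the largest difference of the coding genes. It was at 19.9, 9.32 and 4.47 FPKM in the DES libraries and at 135, 173 and 88.4 FPKM in the DES+calcium libraries. Every DES+calcium library was above every DES library, and the lowest of them was several times the highest DES value. The log2 fold change was 3.75 (standard error 0.52, limma adjusted p = 0.0984). FOS lies on chromosome 14 from 75278774 to 75282230 (GRCh38), and its identifier is ENSG00000170345.

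FOSB, a close relative that also pairs with JUN proteins and averaged 1 FPKM only through the DES+calcium libraries, was at 1.37, 0.712 and 0.446 FPKM with DES and at 8.73, 14 and 4.71 FPKM with DES+calcium. Its log2 fold change was 3.28 (standard error 0.49, limma adjusted p = 0.105). EGR1, a zinc finger factor induced through SRF, was at 10.3, 4.56 and 6.39 FPKM with DES and at 40.2, 39.5 and 25.5 FPKM with DES+calcium. The groups did not overlap for either gene. For EGR1 the log2 fold change was 2.34 (standard error 0.33, limma adjusted p = 0.0984). MAFF, a small MAF protein that pairs with other basic leucine zipper factors, was at 11.6, 12.8 and 9.63 FPKM with DES and at 38.8, 37.9 and 22.6 FPKM with DES+calcium, a log2 fold change of 1.5 (standard error 0.25). NR4A1, an immediate early nuclear receptor, was at 8.33, 10.2 and 10.2 FPKM with DES and at 24.5, 31.5 and 13.8 FPKM with DES+calcium.

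The promoters of FOS, EGR1, MAFF and AREG, all called higher with calcium alone, are shown to compare the elements through which calcium signals are known to act. On DES, AREG overlapped between the groups. Each is the 250 bases before the start of transcription in RefSeq (GRCh38.p14), read 5′ to 3′ in the direction of the gene, and capitals mark matches to the letters searched. These were TNAAGGTCA for the estrogen-related receptor element, TGANTCA for AP-1, TGACGTCA for the cyclic AMP response element that CREB binds, and the CArG box that SRF binds, on both strands. FOS is at chr14:75278578-75278827, EGR1 at chr5:138465229-138465478, MAFF at chr22:38201744-38201993 and AREG at chr4:74444886-74445135, all on the plus strand.
FOS: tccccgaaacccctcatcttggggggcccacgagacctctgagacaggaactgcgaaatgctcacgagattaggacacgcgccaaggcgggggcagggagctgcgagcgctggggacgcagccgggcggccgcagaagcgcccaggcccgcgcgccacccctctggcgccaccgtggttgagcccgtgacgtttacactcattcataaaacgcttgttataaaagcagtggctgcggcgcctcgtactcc
EGR1: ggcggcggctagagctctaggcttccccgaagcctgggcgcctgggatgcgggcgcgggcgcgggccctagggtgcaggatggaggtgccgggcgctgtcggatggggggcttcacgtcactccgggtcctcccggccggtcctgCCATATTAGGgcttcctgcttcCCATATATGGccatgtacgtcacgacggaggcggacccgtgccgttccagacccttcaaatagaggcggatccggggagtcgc
MAFF: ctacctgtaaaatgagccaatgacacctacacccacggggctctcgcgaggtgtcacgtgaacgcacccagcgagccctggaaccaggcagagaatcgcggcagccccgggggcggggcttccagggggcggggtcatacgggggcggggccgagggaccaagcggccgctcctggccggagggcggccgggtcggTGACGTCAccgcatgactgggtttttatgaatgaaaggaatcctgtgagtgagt
AREG: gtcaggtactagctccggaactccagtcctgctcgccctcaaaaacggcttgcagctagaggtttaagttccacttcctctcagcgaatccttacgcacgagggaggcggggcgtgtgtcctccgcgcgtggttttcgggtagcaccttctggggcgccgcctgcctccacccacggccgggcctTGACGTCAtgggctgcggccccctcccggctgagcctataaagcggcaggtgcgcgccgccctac
EGR1 held 2 CArG boxes, and MAFF and AREG held a cyclic AMP response element each. FOS had no match in this window. These are 3 of 11 promoters searched, and those of FOSB, PLK3, ATF3, RASD1, GADD45B, MCM2 and F2RL1, not printed, had 0 matches to any of the 4 motifs. Of 27305 promoters in the reference table, 1.14% held a CArG box, 1.77% the cyclic AMP response element, 6.60% the AP-1 letters and 0.850% the estrogen-related receptor letters. None of these motifs contains another, and a match is a description of letters, not of a bound site. Promoters were found by symbol for 79.9% of the coding genes described, too few for a check over them, which is void. Over those found, the shares were 0.917%, 3.10%, 3.60% and 0.383% in the same order, so the shares over the whole table may not stand for the genes described.

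**Figure D1:**
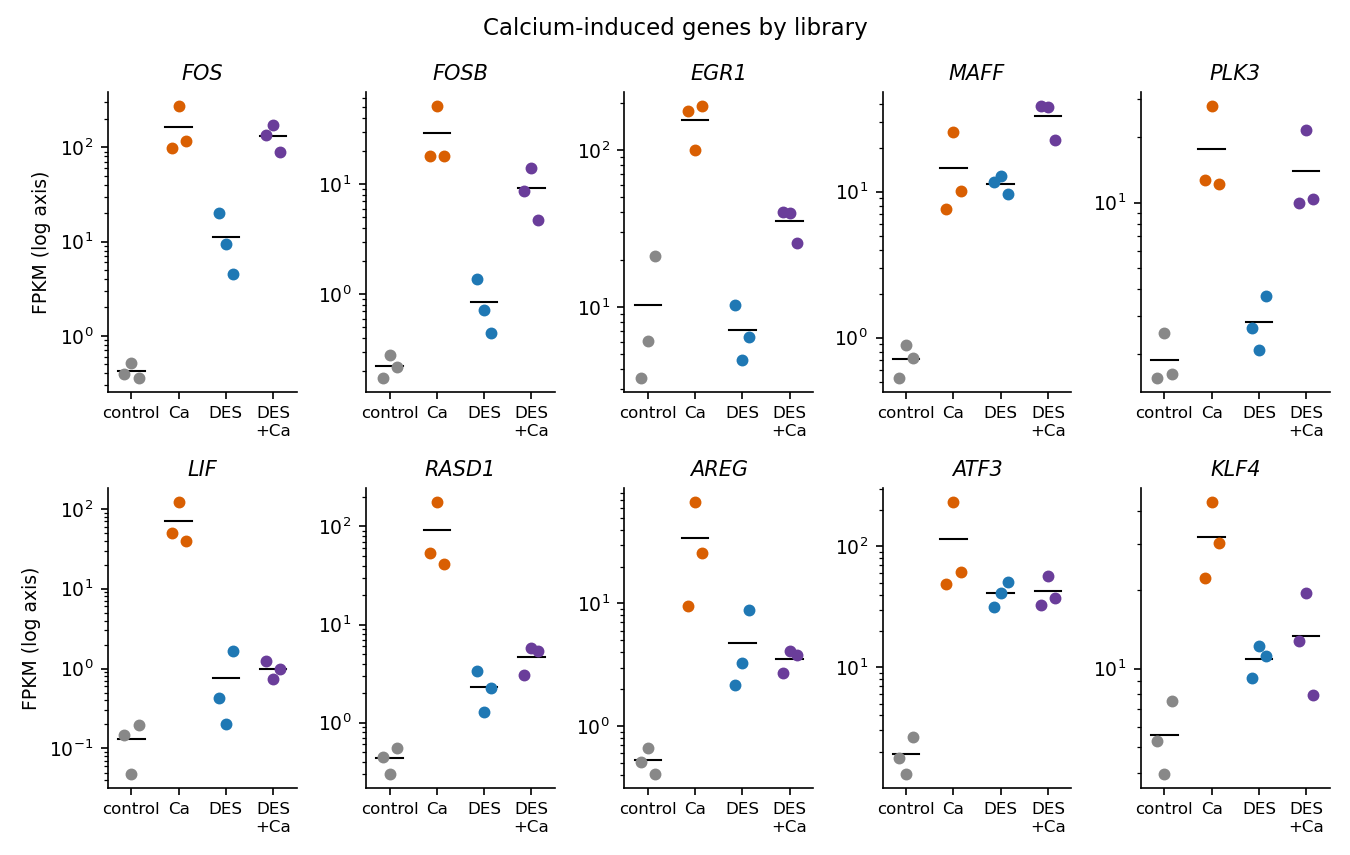
FPKM on a log axis of 10 genes in the 12 libraries of control, calcium (Ca), DES and DES with calcium, where points are libraries and lines are group means (n = 3). FOS, FOSB, EGR1, MAFF and PLK3 lie higher in all 3 DES+calcium libraries than in all 3 DES libraries, whereas LIF, RASD1, AREG, ATF3 and KLF4, also higher with calcium alone, overlap between the DES groups.

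Of the 27 immediate early genes listed, 23 were measured. None was called, 17 had a log2 fold change above 0, and 5 lay above and 2 below in all libraries. Of all coding genes, 54.9% were above 0, and 9.06% lay above and 11.4% below in all libraries. The median of the list was 0.25, with 0.05 over all coding genes, and it was 0.10 to 0.45 when each of the 6 libraries was left out. By library, the list's median relative to the control mean was 1.10 to 1.81 with DES and 1.69 to 2.37 with DES+calcium, so the groups overlapped. The control libraries were at -0.21 to 0.41, so the list was already higher with DES alone. The list was not of a kind: KLF2, a zinc finger factor, was at 24.8, 16.5 and 32.9 FPKM with DES and at 9.58, 8.98 and 13.9 FPKM with DES+calcium. SRF itself was also below in every library, at 11.8 to 13.9 FPKM against 14.9 to 25. JUN was at 254, 230 and 209 FPKM with DES and at 286, 234 and 164 FPKM with DES+calcium, with groups that overlapped.

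Next came the genes that damp MAP kinase signaling. Of 17 measured of 19 listed, 7 lay above in all 3 DES+calcium libraries and 1 below, where 9.06% and 11.4% of all coding genes did, and the median log2 fold change was 0.36 (0.16 to 0.62 with a library left out). By library, the list's median relative to the control mean was -0.31 to 0.43 with DES and -0.20, 0.67 and 1.34 with DES+calcium, so the groups overlapped through DES+calcium replicate 3. DUSP4, a nuclear phosphatase of ERK, was at 11.1, 11.1 and 7.36 FPKM with DES and at 27.9, 49.1 and 11.5 FPKM with DES+calcium. DUSP6, which removes phosphate from ERK in the cytoplasm, was at 7.36, 5.41 and 5.80 FPKM against 9.80, 10.6 and 10.1. SPRY4, a Sprouty inhibitor of receptor signaling, was at 3.19, 3.89 and 4.35 FPKM against 6.40, 9.17 and 5.97. The others above in every library were DUSP1, DUSP5, SPRED1 and ERRFI1. DUSP7 was the one below, at 1.11 to 1.43 FPKM with DES+calcium against 1.84 to 2.97 with DES. None of the 17 passed the test, with a lowest adjusted p of 0.201 (limma).

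PLK3, a stress-responsive polo-like kinase, and its relative PLK2 were higher in every DES+calcium library. PLK3 was at 2.66, 2.09 and 3.73 FPKM with DES and at 9.93, 21.6 and 10.4 FPKM with DES+calcium, a log2 fold change of 2.21 (standard error 0.36, limma adjusted p = 0.117). PLK2 was at 89.1, 115 and 91.4 FPKM against 238, 187 and 161. SPNS2, an exporter of sphingosine-1-phosphate, was at 1.10, 1.64 and 2.00 FPKM against 3.40, 15.8 and 3.11. Its log2 fold change of 1.79 became 1.04 without DES+calcium replicate 2. AK6, an adenylate kinase whose gene shares its locus with TAF9, was at 2.52, 3.58 and 2.62 FPKM against 9.09, 7.67 and 8.02, and reads of the overlapping gene cannot be told apart.

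For 3 further genes a single DES library decided the size. HMGN5, a nucleosome-binding protein, was at 0.183, 8.33 and 10.9 FPKM with DES and at 12.8, 16.2 and 14.5 FPKM with DES+calcium. Its log2 fold change was 2.29 (standard error 1.27), and 0.59 without DES replicate 1. SCOC was at 1.90, 12 and 12.2 FPKM against 16.1, 20.5 and 18.6, and DYNLT3, a dynein light chain, at 0.430, 2.71 and 3.28 FPKM against 4.46, 6.24 and 4.14. Without DES replicate 1 their log2 fold changes went from 1.46 to 0.59 and from 1.53 to 0.69. DES replicate 1 was the low library in each.

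GADD45B, GADD45G, BBC3, BTG2 and SESN1 were the genes of the CDK inhibitor and p53 target list that lay below in every DES+calcium library, and none of them passed the test. GADD45B, a stress-induced regulator of p38 and JNK signaling, was at 3.39, 3.83 and 3.54 FPKM in the control, at 56.4, 56.3 and 74.4 FPKM with DES and at 21.5, 19.3 and 28.6 FPKM with DES+calcium. Its log2 fold change between the DES groups was -1.43 (standard error 0.21, limma adjusted p = 0.102). GADD45G, of the same family, was at 50.7, 50.04 and 56.9 FPKM against 22.5, 16.7 and 26.9. For both genes the DES+calcium libraries thus lay between the control and the DES libraries. BBC3, the p53 target PUMA, was at 31.8, 35.2 and 56.2 FPKM against 19.2, 15.9 and 19.2.

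BTG2, an antiproliferative gene of the p53 and immediate early responses, was at 32.3, 32.9 and 31.6 FPKM with DES and at 14.8, 11.3 and 14.3 FPKM with DES+calcium, a log2 fold change of -1.26 (standard error 0.17, limma adjusted p = 0.0984). In the control it was at 27.8, 25.7 and 21.1 FPKM, so its DES+calcium libraries lay below those of the control as well. Of the 20 CDK inhibitor and p53 target genes measured, 5 lay below and 2 above in every library, where 11.4% and 9.06% of all coding genes did. Their median was -0.06, and 0.06 without DES replicate 3.

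By size, the coding genes furthest below with groups that did not overlap were mostly low in level. Such genes had to average 1 FPKM over the 6 libraries, and CCL17, HRCT1, CASTOR2, IRS2, GPR146 and WDR88 did so only through the DES libraries. For CCL17, CASTOR2, IRS2 and WDR88 this held for the limit of 0.5 FPKM as well, so their place among the largest decreases is partly set by the filter. CCL17, a chemokine, had 55, 13 and 33 fragments with DES and 0, 1 and 8 with DES+calcium, and a log2 fold change of -3.32 (standard error 0.91, limma adjusted p = 0.216). HRCT1 had 88, 77 and 89 fragments against 17, 0 and 19, and CASTOR2, a gene of the mTORC1 pathway with near-identical copies in the genome, had 61, 51 and 64 against 0, 14 and 17. With libraries at 0, these fold changes depend on the pseudocount, and with a pseudocount of 1 they were -1.49, -1.74 and -1.23. Without DES+calcium replicate 2 that of HRCT1 was -1.87, and without DES+calcium replicate 1 that of CASTOR2 was -1.69. IRS2, an adaptor of the insulin receptor, was at 0.717, 1.64 and 3.40 FPKM with DES and at 0.151, 0.193 and 0.495 FPKM with DES+calcium. OMP was at 8.81, 18.8 and 21.1 FPKM against 3.76, 2.16 and 4.09.

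The remaining genes of this group were GPR146, WDR88, MYCL, NUAK2 and FZD5. GPR146, a G protein-coupled receptor, was at 2.27, 4.14 and 4.34 FPKM with DES and at 1.23, 0.366 and 0.760 FPKM with DES+calcium. MYCL, of the MYC family, was at 4.19, 3.61 and 6.89 FPKM against 1.02, 0.602 and 1.94. NUAK2, a kinase related to AMPK, was at 6.64, 7.76 and 14.9 FPKM against 1.41, 1.28 and 5.43, and FZD5, a Wnt receptor, at 2.98, 4.01 and 5.77 FPKM against 0.900, 0.675 and 1.53. Log2 fold changes were -2.13 for GPR146, -2.11 for WDR88, -2.04 for MYCL and NUAK2 and -1.96 for FZD5, with adjusted p-values of 0.129 to 0.281 (limma). With a pseudocount of 1 those of WDR88 and GPR146 were -0.92 and -1.35, and that of IRS2 went from -2.28 to -1.09. MYCL, NUAK2 and FZD5 were among the 70 genes called lower in all 3 of the other fits named above.

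**Figure D2:**
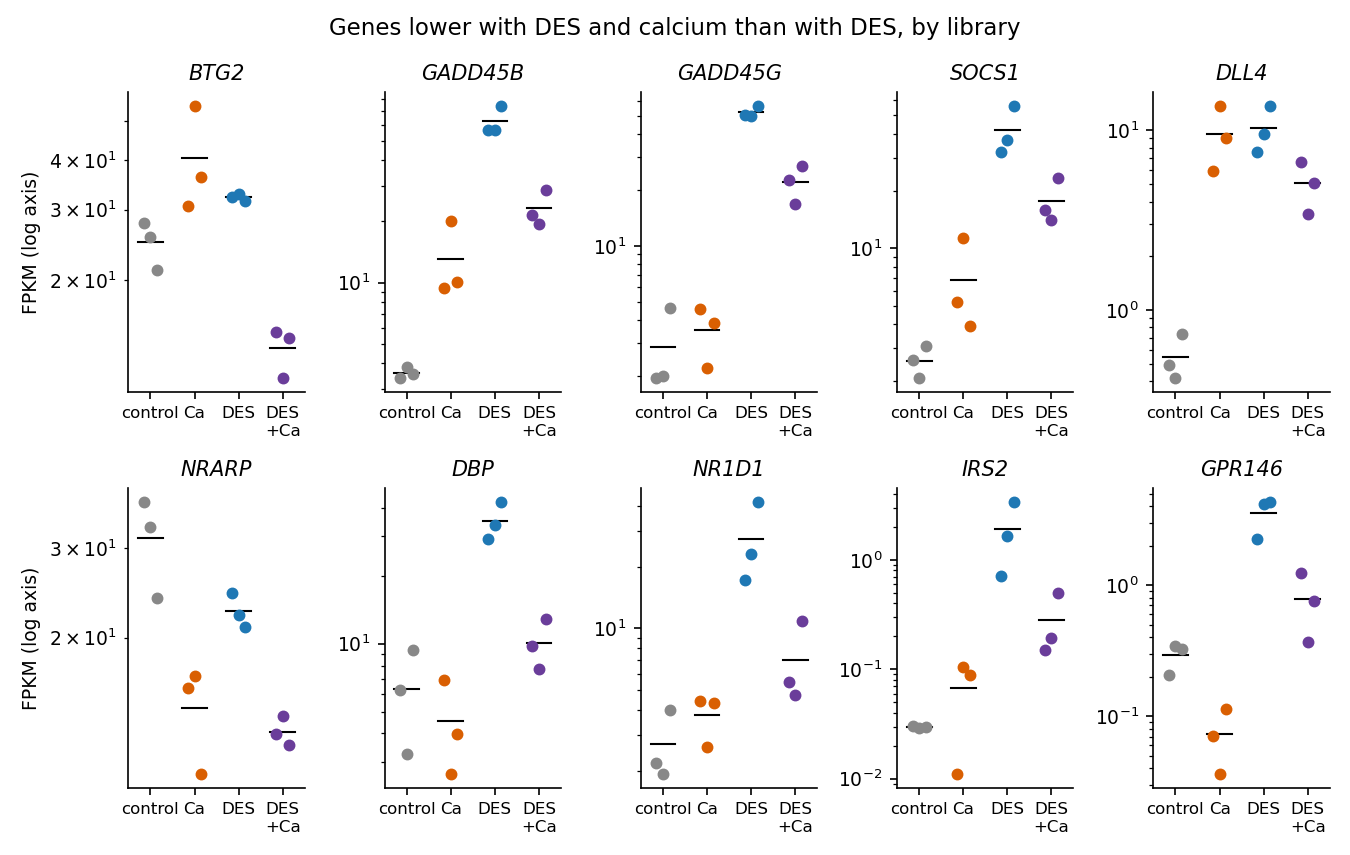
FPKM on a log axis of 10 genes in the 12 libraries of control, calcium (Ca), DES and DES with calcium, with points for libraries and lines for group means (n = 3). All 3 DES+calcium libraries lie below all 3 DES libraries in each panel, and for GADD45B, GADD45G, SOCS1 and IRS2 they lie above the control, whereas for BTG2 they lie below it.

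Notch signaling passes between neighbouring cells through ligands such as DLL4 and receptors such as NOTCH1. Of 24 listed genes 16 were measured, 13 of them had a log2 fold change below 0, and 6 lay below in every DES+calcium library and 0 above. Of all coding genes 45.1% were below 0, and 11.4% lay below in every library. The list's median was -0.27, with 0.05 over all coding genes, but -0.09 after a correction for base composition described further on and -0.47 without DES+calcium replicate 1. Relative to the control mean, the medians by library overlapped, at -0.23 to -0.11 with DES and -0.37 to -0.18 with DES+calcium. The ligand DLL4 was at 7.51, 9.57 and 13.6 FPKM with DES and at 6.66, 3.40 and 5.10 FPKM with DES+calcium. NRARP, a Notch target that feeds back on the pathway, was at 24.5, 22.1 and 21.0 FPKM against 12.9, 14 and 12.3. LFNG, HES6, NOTCH1 and MAML1 were the other 4. The lowest adjusted p of the list was 0.134 for NRARP (limma).

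In the LIF and IL-6 cytokine axis, 16 genes of 22 were measured, 0 lay above and 3 below in every library, where 9.06% and 11.4% of all coding genes did. SOCS1, a feedback inhibitor of JAK kinases, was at 32.2, 37.3 and 56.3 FPKM with DES and at 16, 14.2 and 23.3 FPKM with DES+calcium. PIM1, a kinase induced by cytokines, was at 4.11, 4.09 and 13.2 FPKM against 1.03, 2.03 and 3.73. BCL3 was the third. The median of the list was -0.12, and it turned to 0.03 with quantile normalization. It was -0.29 without DES replicate 1 and -0.04 without DES+calcium replicate 1.

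To see how the response to calcium itself looked with DES present, genes were chosen by their response without DES. Against the control, calcium called 458 coding genes higher and 261 lower (4.25% and 2.42% of 10783, with 3.55% and 2.01% of all genes tested). With a replicate block 0 coding genes were called. The choice of these genes, and every call for calcium alone given here for a gene or list, thus rests on the fit without it. The choice used the 6 libraries of control and calcium, none of which enters DES+calcium against DES. Genes had first to average 0.5 FPKM in the DES and DES+calcium libraries, so genes that calcium raised but that were lower than this on DES are left out. The 458 genes had a median log2 fold change of 1.36 with calcium alone and of 0.17 with calcium on DES. The value of 1.36 is inflated, since the same libraries chose the genes. The medians by library, each against the DES mean, were 0.10, 0.37 and -0.0030 for DES+calcium replicates 1 to 3. Of these genes 299 (65.3%) had a value above 0 on DES, where 54.9% of all coding genes did. In 61 (13.3%) all DES+calcium libraries lay above, and in 34 (7.42%) below, where 9.06% and 11.4% of all coding genes did. The median on DES was 0.07 without DES+calcium replicate 2, but 0.55 and 0.52 when control replicate 1 or 2 was left out and 0.43 and 0.34 without calcium replicate 1 or 2, where fewer libraries chose the genes.

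The 261 genes lower with calcium had a median log2 fold change of -1.27 without DES, also inflated by the choice, and -0.07 with it. On DES, 150 (57.5%) were below 0, against 45.1% of all coding genes. All DES+calcium libraries lay below in 31 (11.9%) and above in 20 (7.66%). The library medians were 0.03, -0.32 and 0.12. The sign was not steady: the median was 0.10 without DES+calcium replicate 2, 0.09 without calcium replicate 3, 0.02 with arrayWeights and 0.0010 after the GC correction described further on. Across the 10783 coding genes, the change with calcium on DES and the change with calcium alone had a correlation of 0.12 (Pearson) and 0.0886 (Spearman), a description across genes that share library depth within each group. Only 101 and 265 coding genes reached 1 and -1 on DES, against 614 and 475 with calcium alone.

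**Figure D3:**
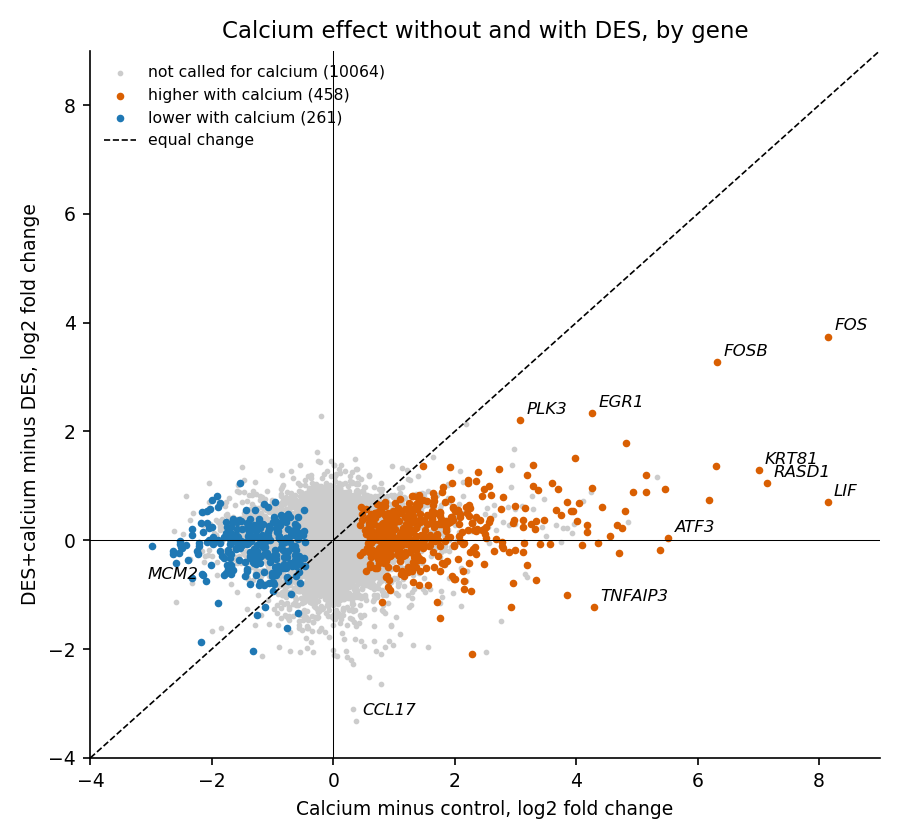
Log2 fold change of the 10783 coding genes with calcium against control (x axis) and with DES+calcium against DES (y axis), each on log2(FPKM + 0.1), with genes called for calcium against control in colour. The called genes lie near 0 on the y axis (medians 0.17 and -0.07) and the points furthest up are FOS and FOSB at 3.75 and 3.28, below the dashed line of equal change.

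The difference between the 2 responses was tested directly as the interaction, the log2 effect of calcium with DES minus that without, over the 12 libraries of the 4 groups. It was called for 168 coding genes in the positive direction and for 273 in the negative (limma, adjusted p under 0.05). Over all genes tested, 1.26% and 2.3% were called positive and negative, and among the coding genes 1.56% and 2.53%. These counts rested on single libraries, since leaving out 1 of the 12 gave 36 to 280 positive and 88 to 382 negative calls. Without control replicate 1 or 2, calcium replicate 1 or 2, DES replicate 2 or 3, or DES+calcium replicate 1 or 3 they were 36 to 72 and 88 to 161, and without DES replicate 1 they were 280 and 382. Of the 458 genes higher with calcium alone 174 had a called negative interaction and of the 261 lower ones 101 a positive one. Both sets were chosen on calcium and control libraries that also enter the interaction, so these 2 counts are partly fixed by the choice.

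LIF, a cytokine of the IL-6 family that sustains pluripotent cells, had the largest negative interaction. It was at 0.148, 0.0477 and 0.198 FPKM in the control and at 50.4, 123 and 39.2 FPKM with calcium. With DES it was at 0.434, 0.202 and 1.67 FPKM, and with DES+calcium at 1.24, 0.734 and 0.998 FPKM. Calcium alone moved LIF in every library, and on DES the groups overlapped. The interaction was -7.44 (standard error 0.85, limma adjusted p = 0.0024).

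RASD1, a Ras-related GTPase, followed the same course, with 41.0 to 179 FPKM under calcium, 1.28 to 3.36 with DES and 3.07 to 5.74 with DES+calcium. Its interaction was -6.09 (limma adjusted p = 0.0024). AREG, an EGF receptor ligand, was at 9.57 to 67.9 FPKM with calcium, 2.15 to 8.83 with DES and 2.73 to 4.12 with DES+calcium, an interaction of -5.56 (limma adjusted p = 0.00982). KRT81, a hair keratin, was at 11.4, 104 and 59.7 FPKM with calcium but at 1.99, 1.27 and 0.313 FPKM with DES and 2.81, 11.6 and 0.404 FPKM with DES+calcium. Its interaction of -5.72 did not pass the test (limma adjusted p = 0.0606).

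A further kind of gene was already high in DES alone. ATF3, a stress-induced factor of the CREB family, was at 1.30 to 2.67 FPKM in the control, 48.5 to 235 with calcium, 31.8 to 50.4 with DES and 33.0 to 57.0 with DES+calcium. Its interaction was -5.48 (standard error 0.70, limma adjusted p = 0.00377). TNFAIP3, an inhibitor of NF-kappaB signaling, was at 1.31 to 7.98 FPKM with calcium, 4.43 to 5.63 with DES and 1.35 to 2.72 with DES+calcium, and its control libraries were at 0.0240 to 0.0674. For TNFAIP3 the estimates differed in sign between the calcium responses, 4.29 without DES and -1.23 with it (interaction -5.52, limma adjusted p = 0.00475). That interaction ran from -7.18 to -2.84 in the other fits, and the control libraries held 11, 4 and 2 fragments. DLL4 and GADD45B had interactions of -4.86 and -3.19 and the same difference in sign. In both, the DES+calcium libraries lay below those of DES and the calcium libraries above the control. The decreases on DES did not pass the test in TNFAIP3, DLL4 and GADD45B (limma adjusted p = 0.183, 0.259 and 0.102). A change of sign was thus not tested.

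FOS and FOSB also had called negative interactions, -4.41 (limma adjusted p = 0.0104) and -3.04 (limma adjusted p = 0.0376). FOS kept its call in all 25 other fits, and FOSB in 11 of 25, with a limma adjusted p of up to 0.319. FOS was at 0.355 to 0.512 FPKM in the control and 97.9 to 277 FPKM with calcium, so its DES+calcium libraries at 88.4 to 173 FPKM overlapped those with calcium alone. The starting levels differed, since FOS in the DES libraries was at 4.47 to 19.9 FPKM. PLK3 reached 9.93 to 21.6 FPKM with DES+calcium and 12.2 to 27.9 with calcium, and its interaction of -0.86 did not pass the test (limma adjusted p = 0.408). EGR1 reached 25.5 to 40.2 FPKM against 99.4 to 191, with an interaction of -1.92 (limma adjusted p = 0.191). Over the 23 immediate early genes, the median change was 3.13 with calcium alone, where 17 were called higher, and the interaction was called negative in 17. Of all coding genes, 4.25% were called higher with calcium and 2.53% had a called negative interaction.

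The largest positive interactions were in GNG13, PRRT1B and the cell division genes PBK, KIF15 and CENPU. PBK, a mitotic kinase, was at 8.13 to 12.5 FPKM in the control and 1.20 to 3.96 with calcium. With DES it was at 7.27 to 11.3 FPKM and with DES+calcium at 9.12 to 17.1, an interaction of 2.81 (limma adjusted p = 0.0216). CENPU, a centromere protein, was at 17.2 to 38.2 FPKM in the control, 4.64 to 8.26 with calcium, 24.1 to 50.5 with DES and 55.8 to 81.2 with DES+calcium. Its interaction was 2.73 (limma adjusted p = 0.0171). KIF15, a spindle motor, had 2.75, GNG13, a G protein subunit, 3.24, and PRRT1B 2.89, with adjusted p-values of 0.0234 to 0.0414 (limma). GNG13 was low, with 82, 88 and 23 fragments in the control and 4, 9 and 12 with calcium. It had 9, 9 and 17 with DES and 30, 24 and 10 with DES+calcium. It averaged 1 FPKM over the 12 libraries only through the control, and its interaction went down to 1.76 among the other fits.

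Of the cell cycle genes, many of the G1/S list were called lower with calcium alone. With calcium on DES no coding gene was called, in this list or any other. All 45 genes of the G1/S list, which license and copy DNA, were measured. Their median was -1.72 with calcium alone, with 27 called lower, and -0.03 with calcium on DES, with 0 called, 2 above and 2 below in all libraries, where 9.06% and 11.4% of all coding genes were. The median on DES was 0.20 without DES+calcium replicate 2 and -0.26 without DES+calcium replicate 3. The interaction was called positive in 24 and negative in 0. Of all coding genes, 2.42% were called lower with calcium alone, and 1.56% and 2.53% had a called positive and negative interaction. By library, relative to the control mean, the G1/S median was -2.00 to -1.53 with calcium, -0.43 to -0.21 with DES and -0.96 to 0.00093 with DES+calcium, where replicate 2 was the lowest. MCM2, a subunit of the replicative helicase, was at 20.6 to 42.8 FPKM in the control, 2.88 to 6.70 with calcium, 24.8 to 32.2 with DES and 15.3 to 28.7 with DES+calcium. Its interaction was 2.39 (limma adjusted p = 0.0263).

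The nuclease EXO1 and RIBC2, also among the 5 genes furthest below with calcium alone, had interactions of 2.44 and 2.31 (limma adjusted p = 0.0391 and 0.0414). They passed in 10 and 13 of the 25 other fits, and MCM2 in 17. TCF19 had 2.18, which did not pass (limma adjusted p = 0.0621). In the G1/S list on DES, GINS2, of the helicase complex, was the highest, at 8.49, 6.69 and 6.51 FPKM with DES and 11.8, 7.97 and 13.1 with DES+calcium. CCNE2, cyclin E2, was the lowest, at 1.83, 5.03 and 11.1 FPKM against 1.55, 0.631 and 3.09. Both overlapped between the groups.

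The 52 genes of the G2/M list had a median of 0.16 with calcium on DES and -1.23 with calcium alone, where 9 were called lower, and a positive interaction was called in 9, where 2.42% and 1.56% of all coding genes were called. On DES the median was -0.01 without DES replicate 1. The calcium libraries were unequal, with medians of -1.57, -1.42 and -0.52 relative to the control. In every library 5 of them lay above (BUB3, KIF11, NUF2, NUSAP1 and ECT2) and 3 below (PLK1, CENPA and PRC1), where 9.06% and 11.4% of all coding genes did. PLK1, the main polo-like kinase of mitosis, was at 22.3, 21.9 and 27.6 FPKM with DES and at 13.2, 11.7 and 12.1 FPKM with DES+calcium (log2 fold change -0.95, limma adjusted p = 0.125). NUF2, of the kinetochore, was at 3.23, 12.2 and 12.7 FPKM against 14.3, 14.3 and 14.3. In bulk samples, fewer dividing cells and less RNA per cell cannot be told apart.

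**Figure D4:**
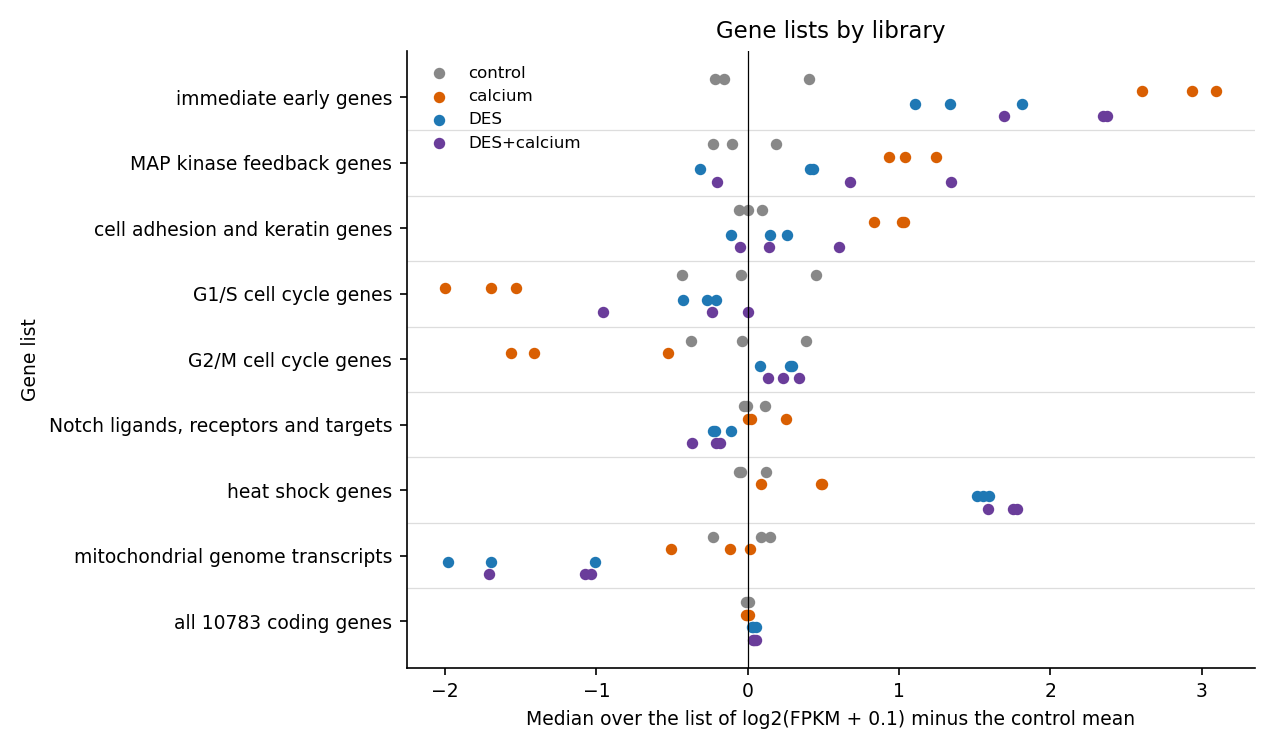
Median over each gene list of log2(FPKM + 0.1) minus the mean of the control libraries (x axis), by list (y axis), with 1 point for each of the 3 libraries of each group. For the G1/S genes the calcium libraries lie at -2.00 to -1.53 and the DES+calcium libraries at -0.96 to 0.00093, with the DES libraries at -0.43 to -0.21, while heat shock and mitochondrial transcripts separate the groups with DES from those without.

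The genes that the study measured by qPCR were nearly all under the limit for testing. KLF4, a pluripotency factor that is also an epithelial zinc finger gene, was the only 1 of 10 with a mean of 0.5 FPKM or more. It was at 9.19, 12.2 and 11.2 FPKM with DES and at 12.7, 19.5 and 7.89 FPKM with DES+calcium, with groups that overlapped and a log2 fold change of 0.21 (standard error 0.32, limma adjusted p = 0.792) that was -0.11 without DES+calcium replicate 2. With calcium alone it was at 22.1, 43.5 and 30.2 FPKM, against 5.29, 3.95 and 7.53 in the control, and the interaction was -2.28 (limma adjusted p = 0.0295). With no filter on low values the interaction did not pass (limma adjusted p = 0.0676), nor did KLF4 for calcium against control (limma adjusted p = 0.0834).

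ESRRB, the receptor itself, had 0, 0 and 8 fragments with DES and 1, 0 and 1 with DES+calcium. SOX2 had 0, 1 and 12 fragments against 2, 0 and 0, and POU5F1 had 7, 4 and 25 against 0, 12 and 7. ESR1 had 0, 0 and 7 against 0, 0 and 6. NANOG, IGF1, SFRP2 and PRL had at most 5 fragments in any of the 6 libraries and 0 in all DES+calcium libraries, and DPT had 0 in all 6. The most fragments of ESRRB, SOX2, POU5F1, ESR1, NANOG, IGF1, SFRP2 and PRL were in DES replicate 3, the library with fragments on the most genes. At this depth a difference in these genes was not detectable, and a count of 0 allows up to 3 fragments, which covers counting error only.

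Of the estrogen-related receptors and their metabolic targets, 23 of 28 listed were measured. The median was 0.17, 3 lay above and 0 below in every library, where 9.06% and 11.4% of all coding genes did, and the interaction was called in 0. Without DES replicate 1 the median was 0.28. CYCS, cytochrome c, was at 19.4, 21.8 and 26.3 FPKM with DES and at 37.0, 37.8 and 40.3 FPKM with DES+calcium (log2 fold change 0.78, standard error 0.17, limma adjusted p = 0.154). COX6A1, of cytochrome oxidase, was at 90.8, 72.9 and 47.6 FPKM against 111, 142 and 110, and the coactivator NCOA2 was the third. ESRRA was at 16.7, 10.4 and 15.9 FPKM against 9.67, 9.85 and 11.8, with overlap. The 13 transcripts of the mitochondrial genome, counted as a list of their own, had a median of 0.30 that turned to -0.04 with quantile normalization, and it was 0.56 without DES replicate 1 and 0.15 without DES+calcium replicate 2.

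Calcium pumps, channels and store sensors did not separate as a list. Of 21 measured of 27 listed, 3 lay above and 1 below, where 9.06% and 11.4% of all coding genes did, and the median of 0.13 turned to -0.0077 with scaling by total fragments and to -0.0051 without DES+calcium replicate 1. ATP2B1, the plasma membrane calcium pump, was at 0.647, 2.81 and 1.81 FPKM with DES and at 2.68, 7.15 and 2.90 FPKM with DES+calcium. ITPR3, the IP3 receptor that releases stored calcium, was at 18.1, 17.8 and 23.6 FPKM against 14.8, 13 and 15.8. Among 33 calcium-binding and calcineurin genes, the median was 0.29, with 0.13 without DES+calcium replicate 2 and 0.44 without DES replicate 1. CALM2, which encodes calmodulin, was at 142, 106 and 72.2 FPKM against 168, 193 and 146. STC1, the secreted stanniocalcin, was at 2.10, 2.36 and 3.48 FPKM against 5.02, 14.3 and 4.47. Its relative STC2 was at 1.27, 1.52 and 2.33 FPKM against 0.653, 2.04 and 0.572.

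In the cell adhesion and keratin list, 30 of 34 genes were measured, with a median of 0.35 on DES and 0.97 with calcium alone, where 12 were called higher, as were 4.25% of all coding genes. The median on DES was 0.13 without DES+calcium replicate 2, and the medians by library overlapped, at -0.11 to 0.26 with DES and -0.05 to 0.60 with DES+calcium. EPCAM, an epithelial adhesion molecule, was at 116, 118 and 103 FPKM with DES and at 170, 190 and 154 FPKM with DES+calcium. E-cadherin, CDH1, went the other way, at 17.5, 22.8 and 21.4 FPKM against 13.9, 13.3 and 15.7, and its interaction was -1.55 (limma adjusted p = 0.0058). The catenins CTNNB1 and CTNND1, which bind cadherins, were also below in every library. Of the luminal markers, KRT18 was the highest on DES at a log2 fold change of 0.80 (limma adjusted p = 0.424). Among 19 measured genes of TGF-beta signaling, 4 lay above and 4 below, where 9.06% and 11.4% of all coding genes did. ID2, a target, was at 58.4, 81.3 and 63.7 FPKM against 137, 146 and 86.3, and the inhibitor SMAD7 was at 4.95, 6.23 and 6.57 FPKM against 4.14, 2.54 and 2.64.

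No gene of the stress lists was called between DES+calcium and DES, as no coding gene was. The heat shock genes had medians by library, relative to the control, of 1.51 to 1.59 with DES and 1.59 to 1.78 with DES+calcium, and their median difference between these groups was -0.06, with 1 of 23 above and 1 below in every library, where 9.06% and 11.4% of all coding genes were. HSPA8, a constitutive chaperone, was at 856, 678 and 751 FPKM with DES and at 882, 870 and 1277 FPKM with DES+calcium. CRYAB, a small heat shock protein, was at 0 to 0.0204 FPKM in the control, 5.57 to 7.38 with DES and 2.62 to 7.06 with DES+calcium. For the endoplasmic reticulum stress genes the median was 0.15, with 0.01 without DES+calcium replicate 2 and 0.46 without DES+calcium replicate 3. HSPA5, the chaperone BiP, was at 313, 446 and 294 FPKM against 499, 994 and 348. The integrated stress response list had a median of 0.04, with SLC7A11, a cystine transporter, as its highest gene at 0.85. MT1X, the most different of the 7 metallothionein and zinc genes, was at 9.52, 8.73 and 26.1 FPKM against 9.24, 16.8 and 51.0.

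The remaining lists had no called gene either. The median was 0.28 over 20 oxidative stress genes, with SRXN1 lowest at -0.21, and 0.18 over 31 genes of sterol and fatty acid synthesis, from FASN at -0.33 to IDI1 at 0.79. The oxidative stress median was 0.07 without DES replicate 3 and 0.14 without DES+calcium replicate 2. The median was 0.18 over 33 glycolysis and hypoxia genes, where CA9, a carbonic anhydrase induced by hypoxia, ranged from 0 to 11.4 FPKM within DES+calcium. Without DES+calcium replicate 3 this median was 0.03, and without DES+calcium replicate 1 it was 0.34. Over 13 androgen response genes it was 0.05, from CLDN8 at -1.67 to PMEPA1 at 0.58. Over 13 estrogen response genes it was 0.09, and TFF1, the trefoil factor, was at 70.9, 80.3 and 19.9 FPKM with DES and at 158, 125 and 51.7 FPKM with DES+calcium. The androgen and estrogen lists turned to -0.09 and -0.05 with scaling by total fragments. The integrated stress response and metallothionein medians also turned, to -0.10 and -0.05. For 8 aryl hydrocarbon receptor genes the median was 0.40, with AHR at 0.71 and ARNT at -0.39, and it was -0.10 without DES replicate 3. The sterol median was -0.16 without DES+calcium replicate 3. With some library left out, the integrated stress response, metallothionein, heat shock, androgen, estrogen and calcium pump medians also changed sign.

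The base composition of the transcripts moved with the difference between the groups. The median GC content was 40.5% in the 977 coding genes that were above in every DES+calcium library, 54.8% in the 1227 below and 48.4% in the others. Split into 5 equal bins by GC content, the coding genes had median log2 fold changes of 0.29, 0.13, 0.05, -0.06 and -0.16 from the lowest to the highest bin. The correlation of the log2 fold change with GC content was -0.357 across coding genes, with a value for 99.8% of them. It was -0.180 without DES replicate 1 and -0.445 without DES replicate 2. Genes on chromosome 19 made up 1.84% of those above and 13.9% of those below, with 7.49% of all coding genes. In median length the genes above (4854 bases) and below (4964 bases) were alike.

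Libraries of the same group also differed along GC content. The deviation of a library from its group mean correlated with GC at 0.306, -0.456 and -0.0385 in DES replicates 1 to 3 and at 0.215, -0.128 and -0.0712 in DES+calcium. Calcium replicate 3 was at -0.641. Removing the trend with GC from each library left 0 coding genes called and moved FOS from 3.75 to 3.83, EGR1 from 2.34 to 2.46 and PLK3 from 2.21 to 2.40. The part of GC content in the counts of genes above and below was not tested beyond this correction.

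**Figure D5:**
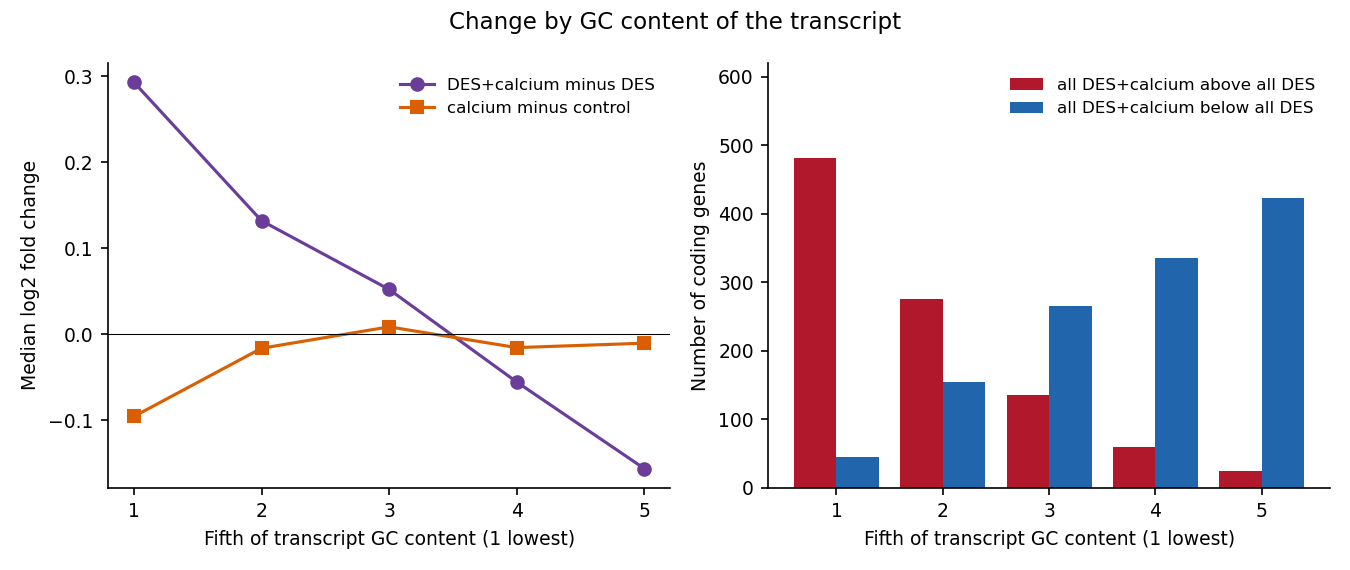
Coding genes in 5 equal bins of transcript GC content (x axis, 1 lowest), with the median log2 fold change of each bin on the left and the number of genes whose 3 DES+calcium libraries all lie above or all below the 3 DES libraries on the right. The median of DES+calcium minus DES runs from 0.29 to -0.16 and that of calcium minus control from -0.10 to -0.01, and genes above number 482 in the lowest bin and 24 in the highest.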

How the data were processed

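RNA-seq libraries of MDA-MB-453 cells were made from poly-A mRNA and sequenced as paired reads. The authors made and deposited a single table of FPKM, which also gives the length and type of each gene. The submitters' processing notes name HISAT2 2.0.5, featureCounts 1.5.0-p3 and GRCh38.p14, and the methods name DESeq2 and edgeR, neither of which was run here. Strandedness is stated in more than 1 way, so overlapping, antisense and near-identical genes are uncertain. FPKM multiplied by gene length and divided by a constant estimated for each library gave whole fragments (within 0.1) for 100% of the values.

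Genes averaging 0.5 FPKM or more in the 6 libraries were tested with limma 3.58.1 in R 4.3.3 (lmFit, eBayes with trend) on log2(FPKM + 0.1), a scale that understates the change of low genes, with only the libraries compared. Tests were two-sided, with Benjamini-Hochberg adjustment across the 14619 genes and a threshold of 0.05. GC content came from the longest transcript of each gene in GENCODE 44. The steps were run on simulated counts, with results not given here. These counts held no GC trend, no outlying library and no effect shared by replicate number, so they do not speak to such features of the data.

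The genes, lists and tests were chosen with earlier results of these data known. Named genes are, in each direction, the 10 largest differences among genes averaging 1 FPKM or more whose groups were separate, the qPCR genes, the highest and lowest of each list, and the 5 largest called calcium effects and interactions. Some results under this rule are not reported here. Other genes named were chosen after their values were seen. Alternatives were a log2 fold change of at least 1, pseudocount 1, no filter, a mean of at least 2 FPKM, coding genes only, median-ratio, quantile and total-fragment scaling, all 7 groups in one fit, arrayWeights, limma-voom, a replicate block and each library left out. The correction for GC content was added after seeing the data.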

Additional observations from a re-analysis of the deposited data

Results flagged for a closer look

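The effect of calcium differed with and without DES, by the interaction test (limma, adjusted p under 0.05), in 168 coding genes in the positive direction and 273 in the negative. Among those with a mean of at least 1 FPKM over the 12 libraries, the largest negative interactions were in LIF (-7.44), RASD1 (-6.09), AREG (-5.56), TNFAIP3 (-5.52) and ATF3 (-5.48). The largest positive ones were in GNG13 (3.24), PRRT1B (2.89), PBK (2.81), KIF15 (2.75) and CENPU (2.73). GNG13 averaged 1 FPKM only through the control libraries. LIF, RASD1, TNFAIP3 and ATF3 passed the test in all 25 other fits run, AREG and CENPU in 24, PBK in 19, PRRT1B in 18, KIF15 in 12 and GNG13 in 11. In groups of 3 libraries no test for a single outlying library was made.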

How the results depend on the processing

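For DES+calcium against DES, 0 coding genes were called in either direction under each alternative and with each library left out (0 to 0), except with all 7 groups in one fit (16 higher, 113 lower), arrayWeights (244 and 404, with a weight of 6.64 on DES replicate 2) and a replicate block with limma-voom (10 and 124). The replicate block alone called 0. Deviations of same-numbered DES and DES+calcium libraries correlated at 0.128, 0.0877 and 0.249, and those of unlike-numbered ones at -0.171 to 0.0331. Each same-numbered pair was thus the highest for its libraries. Whether the numbers pair the libraries is not settled by this, and the main fit took no pairing. For the interaction, 168 and 273 became 62 and 110 with no filter, 261 and 438 with coding genes only, 16 and 119 with all 7 groups, 942 and 1069 with arrayWeights, 258 and 350 with the replicate block and GC correction, and 209 and 464 with the replicate block and limma-voom. With each library left out they were 36 to 280 and 88 to 382. The replicate block alone gave 177 and 318. The medians of the calcium-responsive genes on DES ranged from 0.066 to 0.55 (genes higher with calcium) and from -0.42 to 0.10 (genes lower) with a library left out, and no median of the lower genes could be had without control replicate 1. The replicate block called no coding gene for calcium against control and gave no such median. For DES+calcium against DES, scaling by total fragments shifted the median of all coding genes by -0.13. Of 380 values of 20 single genes under other settings 29 passed the threshold and 0 reversed, and of 425 interaction values of 17 genes 91 lost it and 11 gained it. Depth limits the low genes: 3 fragments are the limit for a count of 0.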

Other observations

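The circadian clock keeps daily time through factors that repress their own transcription. A list of 21 of its genes was put together after NR1D1 and DBP had been seen among the differences, so its counts support nothing. Of 19 measured, 15 had a log2 fold change below 0, 6 lay below in every DES+calcium library and 1 above, where 45.1%, 11.4% and 9.06% of all coding genes did, and 0 were called (limma). DBP, a clock output factor, was at 29.1, 33.6 and 42.7 FPKM with DES and at 9.75, 7.68 and 12.9 FPKM with DES+calcium (log2 fold change -1.80, standard error 0.24, limma adjusted p = 0.0984). NR1D1, the repressor REV-ERB alpha, was at 17.2, 23.1 and 41.9 FPKM against 5.47, 4.70 and 10.8. TEF, a relative of DBP, was at 13.3, 12.4 and 16.1 FPKM against 5.99, 5.97 and 6.92. CIART, CRY2 and PER3 were the others below, and CLOCK, at 1.06, 1.51 and 1.57 FPKM against 1.59, 1.74 and 1.89, was the one above. The median of the list was -0.28 and stayed below 0 under each scaling.

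Outside the coding genes, the 7 genes called between the groups were short RNAs of 63 to 110 bases with 0 fragments in every DES+calcium library, and they passed the filter on low values only through the DES libraries.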
